A study of Mus musculus with 6 samples.

Results

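The GTPases of immunity-associated proteins (Gimap) are encoded in mice by a compact cluster of related genes, and the 8 members named Gimap1, Gimap3, Gimap4, Gimap5, Gimap6, Gimap7, Gimap8 and Gimap9 were followed here in T and NK cells from tumors. They are 8 of the 34187 gene features of the files, taken by name, and all 8 were detected. The family was chosen by its levels across the annotated clusters and treatments in earlier results of these data. Its levels across clusters are therefore a description, and its adjusted p values, which come from fits over all genes, are not independent support.

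Gimap proteins are small GTP-binding proteins that sit on internal membranes, above all in lymphocytes, and several of them are needed for naive T cells to survive outside the thymus. Gimap5 is known for the loss of peripheral T cells in rodents that lack it, Gimap1 for the upkeep of mature T and B cells, and Gimap4 for a part in the death of T cells. Gimap3 is a close relative of Gimap5, Gimap6 binds a protein of the autophagy machinery, Gimap7 can dimerize and stimulate the GTPase activity of a relative, and Gimap8 carries several GTP-binding domains. 

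Single-cell RNA sequencing from the 5′ end of transcripts was performed on CD45+ cells pulled with beads from tumors of the mouse pancreatic cancer line 6694c2vTRP1, grown under the skin of C57BL/6 mice. The mice received PBS, mono-IL10 at 26 µg (a monomeric IL-10) or IL10/2-Trikine at 30.6 µg (a molecule that joins IL-10 and IL-2 receptor signaling), in 2 i.p. injections from day 8 on, and tumors were taken on day 14. The cells of each mouse carried 1 of 5 hashtags, and the cells of a group were pooled into 1 library, so a treatment and its library cannot be told apart. The comparisons ask how the 2 cytokines change tumor-infiltrating lymphocytes, and the 3 comparisons share groups.

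The libraries held 44412 barcodes for PBS, 30528 for mono-IL10 and 55504 for IL10/2-Trikine. The authors' annotation covers 516, 843 and 725 of them in that order, as 12 clusters of T and NK cells, and 348, 635 and 400 of these cells carry a mouse. The median annotated cell held 2780 unique molecular identifiers (UMIs, each marking 1 captured transcript) for PBS, 3959 for mono-IL10 and 2635 for IL10/2-Trikine. Levels are given below as CPM, the UMIs of a gene among 1000000 UMIs of the same cells. They are not scaled by gene length. Each gene is compared with itself between cells, apart from sums over the members and shares of member UMIs. Cell barcodes shared between libraries numbered 408 to 700 per pair of libraries, and 0 of them were annotated in both. The clusters keep the authors' names, and the Treg and NK marker lists were each highest in the cluster of that name, at 5217 and 6487 CPM. The naive_CD8T cluster had 351 CPM over the naive markers Ccr7, Lef1 and Tcf7, below the 1011 of act_CD4T and the 497 of Cycling_Treg, so its name rests on the authors' annotation.

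The members lie side by side on chromosome 6 in the order Gimap8, Gimap9, Gimap4, Gimap6, Gimap7, Gimap1, Gimap5 and Gimap3, with Gimap6 and Gimap3 on the minus strand. The 250 bases before the start of 4 members are shown to set the 2 members that were called lower after IL10/2-Trikine (Gimap3 and Gimap7) beside 2 that were not called (Gimap4 and Gimap6). They are RefSeq sequences of the build GRCm38.p6, read 5′ to 3′ on the strand of the gene. Capitals mark matches, on either strand, to GTAAACA (a FOXO core), TGTGGT (a RUNX core) or TTCNNNGAA (the STAT palindrome).
Gimap3, chr6:48770852-48771101, minus strand: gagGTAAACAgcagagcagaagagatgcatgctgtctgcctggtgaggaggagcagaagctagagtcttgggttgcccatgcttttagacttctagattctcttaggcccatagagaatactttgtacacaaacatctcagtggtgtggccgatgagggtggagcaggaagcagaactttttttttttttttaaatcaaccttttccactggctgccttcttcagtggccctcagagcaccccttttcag
Gimap7, chr6:48718371-48718620, plus strand: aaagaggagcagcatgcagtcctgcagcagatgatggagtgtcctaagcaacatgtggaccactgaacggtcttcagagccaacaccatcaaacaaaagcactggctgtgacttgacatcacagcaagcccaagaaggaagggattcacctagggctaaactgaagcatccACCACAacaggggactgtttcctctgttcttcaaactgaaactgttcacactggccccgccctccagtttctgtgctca
Gimap4, chr6:48684328-48684577, plus strand: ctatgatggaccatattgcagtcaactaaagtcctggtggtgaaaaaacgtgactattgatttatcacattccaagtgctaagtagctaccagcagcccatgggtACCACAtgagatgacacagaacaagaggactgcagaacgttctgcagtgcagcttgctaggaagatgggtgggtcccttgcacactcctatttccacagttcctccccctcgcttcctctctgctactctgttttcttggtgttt
Gimap6, chr6:48708245-48708494, minus strand: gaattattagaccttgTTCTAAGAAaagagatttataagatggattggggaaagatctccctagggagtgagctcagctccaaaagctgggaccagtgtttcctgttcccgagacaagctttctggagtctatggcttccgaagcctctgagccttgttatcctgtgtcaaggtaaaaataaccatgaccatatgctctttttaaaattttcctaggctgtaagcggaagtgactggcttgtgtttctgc

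All 8 members matched the RefSeq promoter table, with 9 windows in all because Gimap8 has 2. The 2 Gimap8 windows overlap, so a match in their shared stretch, such as 1 of CACCC, is counted in both. The FOXO core was found in 1 of the 9 windows, that of Gimap3, against 3.17% of the 32851 windows of the same length in the table. The RUNX core was found in 3 of 9 (Gimap1, Gimap4 and Gimap7) against 14.0%, and the STAT palindrome in 2 of 9 (Gimap6 and the downstream Gimap8 window) against 7.02%. An ETS core, GGAA, was found in 8 of 9 against 93.4%, and a KLF core, CACCC, in 6 of 9 against 52.0%. A TCF/LEF core, CTTTGA, was found in 0 of 9 against 13.8%. Gimap3 and Gimap7 shared only the ETS core among these motifs.

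Across the annotated clusters, the summed level of the 8 members was highest in regulatory T cells. In PBS the Treg cluster held 2328 CPM (95% Poisson interval 2072 to 2607, which covers counting error only), naive_CD4T 2070, naive_CD8T 1607, gdT/NKT 1490, NK 1336, Cycling_T 1134 and act_CD4T 661. In mono-IL10 the order was the same, from 2753 in Treg to 956 in act_CD4T. In IL10/2-Trikine the Treg cluster held 1541, gdT/NKT 1391, NK 1163, Cycling_T 938, Cycling_NK 933 and act_CD4T 809, while its naive clusters had 1 or 2 cells each. Neighbors in these orders had overlapping intervals, apart from Treg and naive_CD4T in mono-IL10, NK and Cycling_T in both treated libraries, and Cycling_T and act_CD4T in PBS and mono-IL10. The Treg cluster also had the highest sum of macrophage or monocyte markers among the 12 clusters, at 424 CPM, and the part of this in its level was not tested. Clusters with under 20 cells in a library are not ranked, which leaves out Cycling_Treg, ISG+CD8T, Th17/ILCs and naive_T in all 3 libraries. No test is given here, because the clusters were made from the genes of the same cells.

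**Figure D1:**
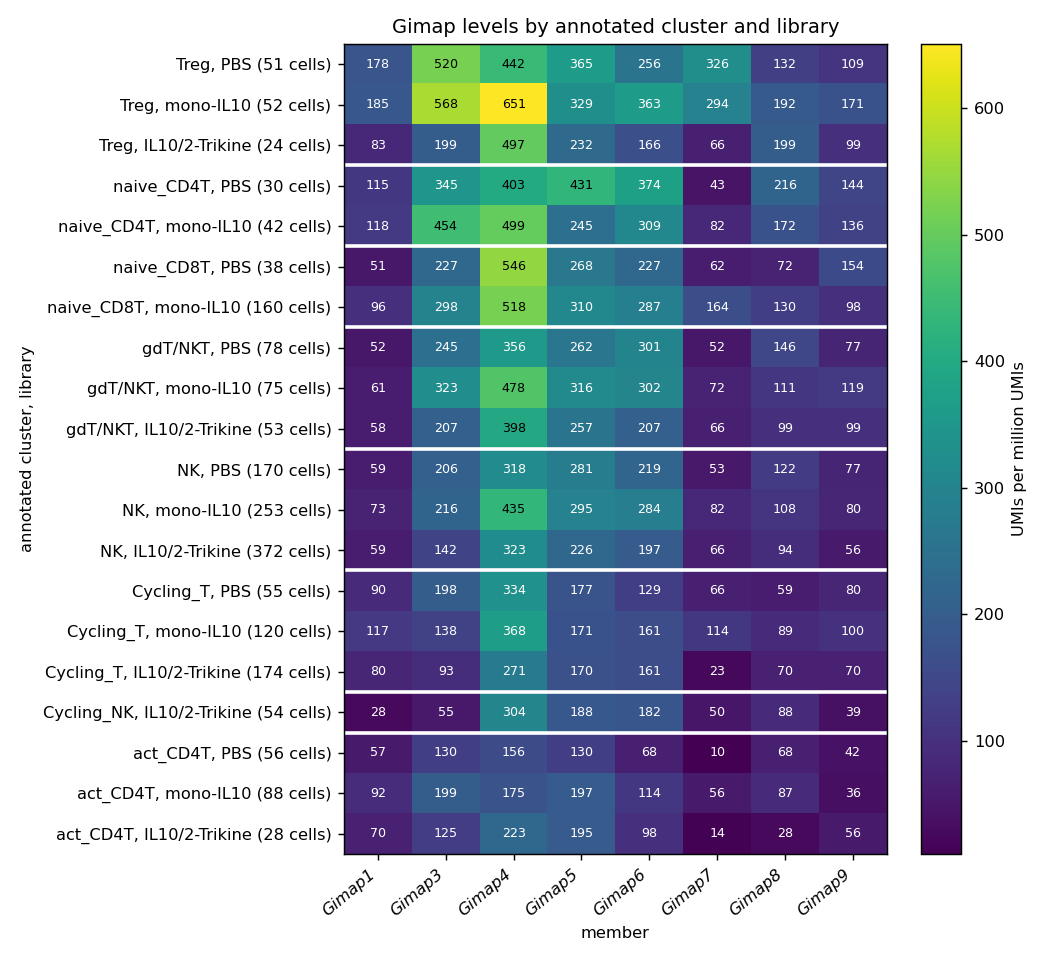
Level of each member (columns) in each annotated cluster and library with at least 20 cells (rows), as CPM, with the number printed in each cell of the plot and shown by color. The Treg rows of PBS and mono-IL10 are high in Gimap3 (520 and 568) and Gimap7 (326 and 294), the Treg row of IL10/2-Trikine is lower in both (199 and 66.3), and the act_CD4T rows are low in most members.

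The members did not share 1 pattern across clusters. Gimap7 stood out, since in PBS it was at 326 CPM in Treg cells (95% interval 235 to 441) and between 10.4 and 66.1 in every other ranked cluster. The mice behind this value were far apart, with 205 and 632 CPM in the 2 PBS mice that had at least 10 Treg cells and between 123 and 517 in 3 mono-IL10 mice. In mono-IL10 it was at 294 in Treg cells, followed by 164 in naive_CD8T and 114 in Cycling_T. In IL10/2-Trikine it was at 66.3 in Treg cells (18.1 to 170, from 24 cells), close to the 66.3 of gdT/NKT and the 66.0 of NK cells. Gimap3, the relative of Gimap5, was also highest in Treg cells in PBS (520) and mono-IL10 (568), with naive_CD4T next (345 and 454). In IL10/2-Trikine it was at 207 in gdT/NKT and 199 in Treg cells, with overlapping intervals. Gimap1 was highest in Treg cells too, at 178 in PBS and 185 in mono-IL10. Gimap5, Gimap6 and Gimap8 were highest in naive_CD4T in PBS, at 431, 374 and 216, and in Treg cells in mono-IL10, at 329, 363 and 192. Gimap4 and Gimap9 were highest in naive_CD8T in PBS, at 546 and 154, and in Treg cells in mono-IL10, at 651 and 171. For every member but Gimap7, the interval of the highest cluster overlapped that of the next in PBS and in mono-IL10. Over 20 cluster sums of at least 20 cells, the 28 pairs of members had Pearson correlations of log2 levels from 0.29 (Gimap1 with Gimap6) to 0.87 (Gimap4 with Gimap9), with a median of 0.64. These sums come from 3 libraries and share their depth, so the correlations are a description only.

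Detection in single cells was compared before and after thinning, since mono-IL10 had the deepest cells. Of the annotated cells, 93.2% held at least 1 member UMI after PBS, 97.9% after mono-IL10 and 89.9% after IL10/2-Trikine. After each cell was thinned to 1500 UMIs, which left out 1 shallower cell of IL10/2-Trikine, these shares were 78.3%, 84.0% and 77.2%. Gimap3 was seen in 48.8%, 59.7% and 28.3% of cells before thinning and in 26.2%, 30.01% and 19.2% after it. Gimap7 was seen in 18.2%, 30.4% and 13.2% before thinning and in 8.53%, 14.1% and 6.77% after it. Every member was least frequent in IL10/2-Trikine before and after thinning, so this order was not particular to Gimap3 and Gimap7. After thinning, for example, Gimap6 was seen in 26.2%, 31.6% and 22.5% of cells and Gimap8 in 15.5%, 15.1% and 12.8%. As a background, at least 1 member UMI was found in 2.33%, 2.81% and 3.39% of barcodes with tumor epithelial markers, whose median depths were 18210.5, 26312 and 8434 UMIs.

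The 10 genes most like the summed members were ranked by the Pearson correlation of log2(CPM + 10) over the same 20 sums, among 5223 genes with at least 200 UMIs. They were Osbpl9 (r = 0.85), Malat1, Mia2, Ifngr1, Atp11b, Arhgap25, Ypel3, ENSMUSG00000120777, Cdc42se2 and Rapgef6 (r = 0.78). Ifngr1, a chain of the interferon gamma receptor, ranged from 335 CPM in act_CD4T of IL10/2-Trikine to 1199 in Treg cells of mono-IL10. Malat1, a nuclear noncoding RNA, had its lowest and highest sums in the same 2 places, at 1562 and 6684.

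Between treatments, Gimap3 was the member whose mice did not overlap over T and NK cells. Over T and NK cells together, its level in the 5 PBS mice was 189, 195, 258, 221 and 238 CPM. In the 5 mono-IL10 mice it was 205, 208, 204, 276 and 203. In the 5 IL10/2-Trikine mice it was 112, 129, 145, 163 and 114. Every IL10/2-Trikine mouse thus lay below every mouse of both other groups, while PBS and mono-IL10 overlapped. The same was true of 4.33% of the 4595 tested genes against PBS and of 4.24% against mono-IL10. Group means were 220 ± 28.9 (SD, n = 5) after PBS, 219 ± 31.6 (n = 5) after mono-IL10 and 133 ± 21.5 (n = 5) after IL10/2-Trikine. In the edgeR quasi-likelihood fit over all genes, Gimap3 fell by 0.74 on the log2 scale against PBS (SE 0.15, adjusted p = 0.000923) and by 0.81 against mono-IL10 (SE 0.14, adjusted p = 0.000106). Of all genes tested, 10.3% were called in the first comparison and 9.73% in the second, and 2 of 8 members were called in each, both lower. Genes called lower made up 5.2% and 5.4%. Fewer Gimap-bearing cells and less Gimap RNA per cell cannot be told apart in these sums. The make-up of the summed cells moved as well, since NK clusters took 28.8% ± 7.96 (SD, n = 5) of the cells of a mouse after PBS, 30.2% ± 4.99 after mono-IL10 and 55.4% ± 9.76 after IL10/2-Trikine. Naive clusters took 14.6%, 21.6% and 0.448% of them, and the 5 T cell markers summed to 1990, 2349 and 898 CPM. T and NK cells are therefore also given apart.

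Gimap7 was the other member called over T and NK cells. Its levels in PBS mice were 61.2, 86.9, 77.8, 112 and 45.0 CPM. Mono-IL10 mice had 99.5, 116, 87.5, 131 and 68.2. IL10/2-Trikine mice had 32.8, 31.1, 72.4, 34.0 and 62.1. The groups overlapped, with 3 IL10/2-Trikine mice below every PBS mouse. Gimap7 fell by 0.87 against PBS (SE 0.28, edgeR adjusted p = 0.0420) and by 1.25 against mono-IL10 (SE 0.25, edgeR adjusted p = 0.000567). The call against PBS was lost in edgeR when PBS mouse 2, 3 or 4 or IL10/2-Trikine mouse 1, 2 or 4 was left out, with differences from -0.63 to -0.89 and adjusted p from 0.0591 to 0.222. It was also lost without the Treg clusters, an alternative chosen after the data were seen, where the difference was -0.34 and the edgeR adjusted p 0.562. The call was further lost with DESeq2 (-0.83, adjusted p = 0.107), after thinning to 1 total (-0.94, edgeR adjusted p = 0.0671) and without the naive clusters (-0.86, edgeR adjusted p = 0.0590).

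In T cells alone (the 10 clusters other than NK and Cycling_NK), Gimap7 was also lower after IL10/2-Trikine. PBS mice had 49.3, 124, 75.0, 135 and 47.3 CPM, and mono-IL10 mice 103, 133, 91.2, 162 and 78.2. IL10/2-Trikine mice had 15.8, 29.2, 34.7, 42.7 and 33.1, all below every other mouse, from 16 UMIs in the whole group. Of 3189 tested genes, 4.05% showed such a separation against PBS and 4.42% against mono-IL10. Gimap7 fell by 1.65 against PBS (SE 0.40, edgeR adjusted p = 0.00627) and by 2.06 against mono-IL10 (SE 0.36, edgeR adjusted p = 0.000112). The call against PBS was lost without the Treg clusters (edgeR adjusted p = 0.162), without the cycling clusters (0.0596) and without cells that have more UMIs of NK than of T markers (0.0699), which were 50.6% of the T cells of a mouse after IL10/2-Trikine. Gimap7 did not pass the filter on low counts in the fit of PBS and IL10/2-Trikine mice alone, or after thinning to 1 total. Its test against PBS thus rests on a fit in which the mono-IL10 mice also entered the filter. The test against mono-IL10 has a like limit. There the gene was kept through the mono-IL10 mice, at 78.2 to 162 CPM, and not through the IL10/2-Trikine mice, at 15.8 to 42.7. Its adjusted p against mono-IL10 is therefore not independent of the filter.

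Gimap3 in T cells was at 160, 223, 265, 245 and 274 CPM in PBS mice and at 224, 207, 197, 313 and 206 in mono-IL10 mice. IL10/2-Trikine mice had 103, 141, 122, 171 and 116, which lay below all mono-IL10 mice and overlapped the lowest PBS mouse. Gimap3 fell by 0.85 against PBS (SE 0.21, edgeR adjusted p = 0.00741) and by 0.93 against mono-IL10 (SE 0.20, edgeR adjusted p = 0.00132). The call against PBS was lost under 2 of 25 alternatives and that against mono-IL10 under 3 of 25, as given below with the make-up of the cells. Among all genes tested in T cells, 9.19% were called against PBS and 12.8% against mono-IL10, beside 2 of 8 members in each. Genes called lower made up 4.08% and 6.71%.

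**Figure D2:**
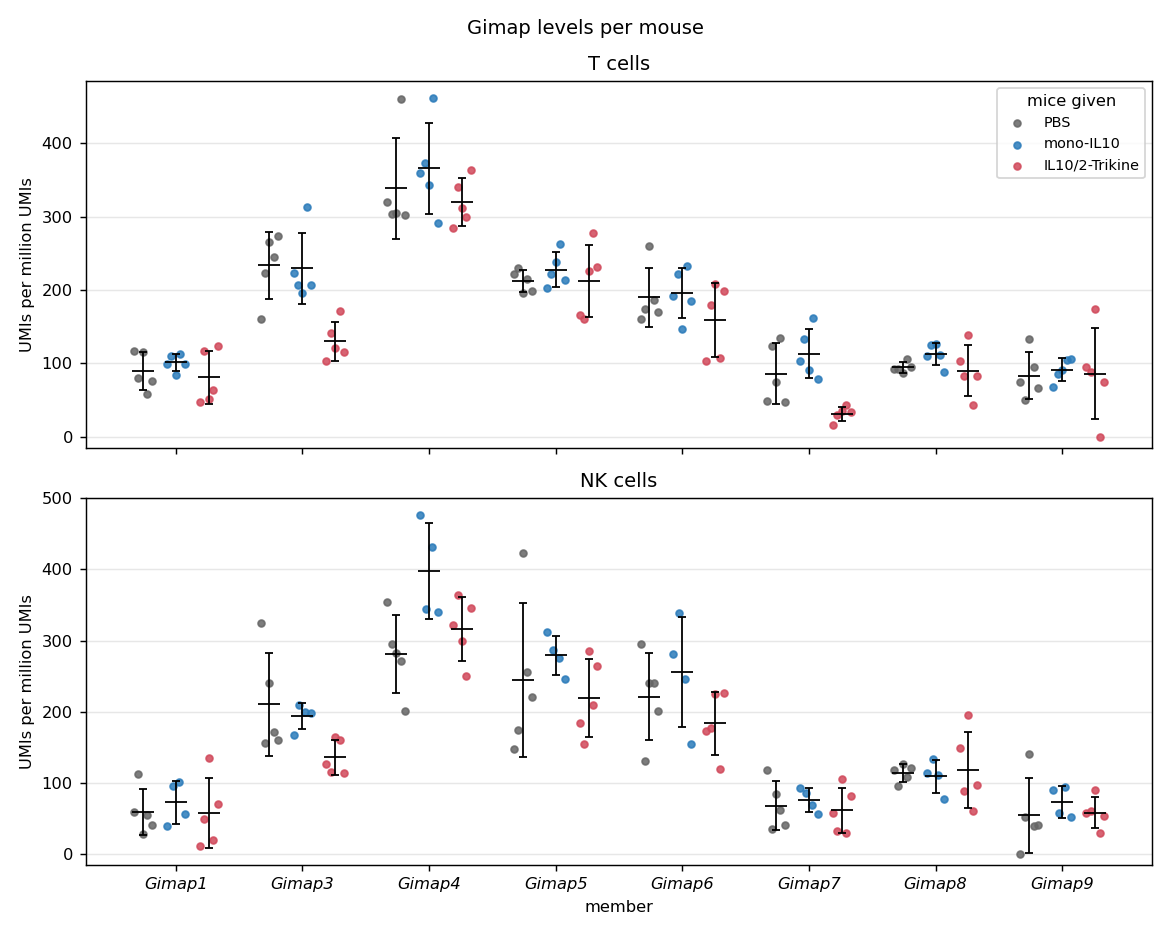
Level of each member per mouse in T cells (upper panel) and NK cells (lower panel), as CPM. Points are mice, colored by treatment, and black marks are the mean and SD over 5 mice (4 in the NK cells of mono-IL10). In T cells the IL10/2-Trikine mice of Gimap7 lie between 15.8 and 42.7, below all others. Those of Gimap3 lie between 103 and 171, below all mono-IL10 mice but overlapping the lowest PBS mouse. The other members overlap between treatments.

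The 6 remaining members were not called in any comparison of T cells. Against PBS, the T cell differences of IL10/2-Trikine ranged from -0.22 for Gimap6 to 0.049 for Gimap1, whose sign changed under 7 of 24 alternatives and whose mean CPM was 89.4 after PBS and 80.9 after IL10/2-Trikine. Gimap5, the survival factor of naive T cells, was at 212 ± 49.2 (n = 5) after IL10/2-Trikine and 212 ± 14.6 (n = 5) after PBS, with a log2 difference of -0.086 (95% interval -0.45 to 0.28). Gimap4 differed by -0.076 (-0.41 to 0.26). Against mono-IL10 all 8 members had differences below 0, from -0.074 for Gimap9 to the 2.06 by which Gimap7 fell, and the summed level of the family was 1110 ± 148 (n = 5) against 1437 ± 197 (n = 5), with the highest IL10/2-Trikine mouse (1268) next to the lowest mono-IL10 mouse (1269). That sum is given without a test. The sign against mono-IL10 changed under 5 of 24 alternatives for Gimap9 and under 1 of 24 for Gimap1. The median difference of the members from mono-IL10 in T cells was -0.30, against -0.015 over all genes tested.

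**Figure D3:**
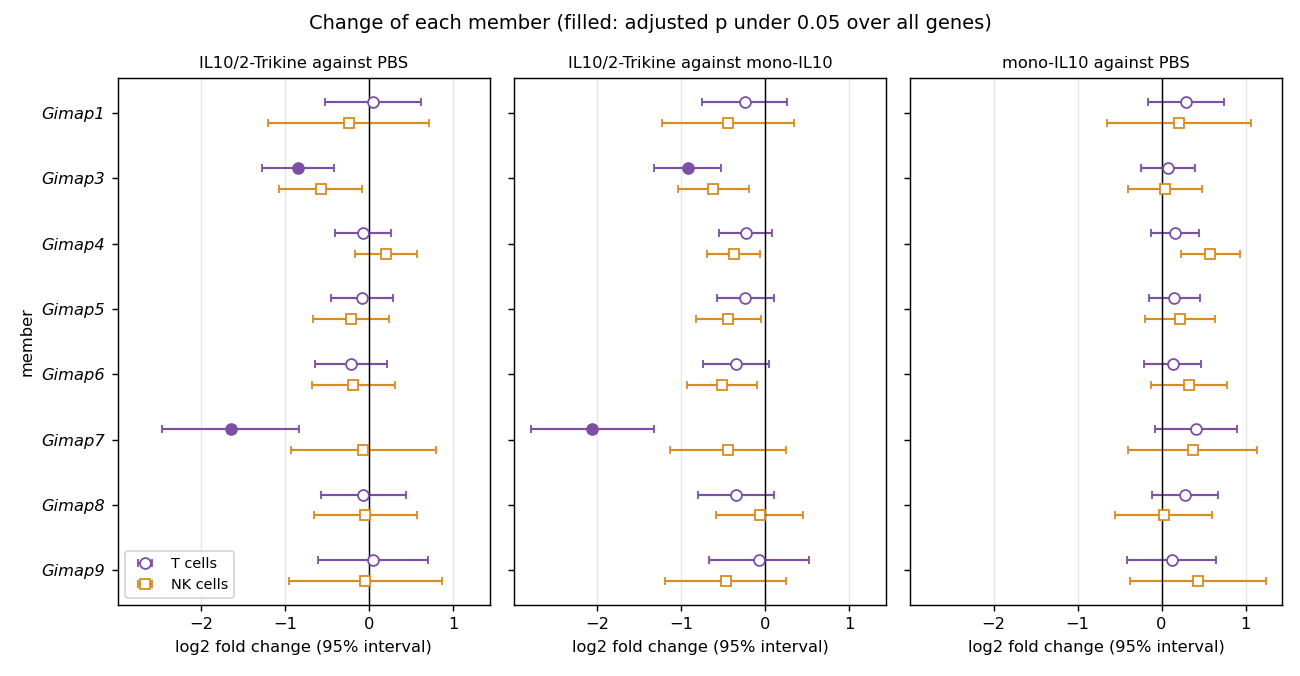
Log2 fold change of each member in T cells (circles) and NK cells (squares) with 95% intervals from edgeR, for the 3 comparisons. Filled symbols, at adjusted p under 0.05 over all genes, occur for Gimap3 and Gimap7 in T cells in both comparisons of IL10/2-Trikine and for no member of NK cells.

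In NK cells (the NK and Cycling_NK clusters) 0 of 8 members were called in the 3 comparisons by edgeR, where 5.1%, 0.382% and 3.44% of 2355 genes were called for IL10/2-Trikine against PBS, mono-IL10 against PBS and IL10/2-Trikine against mono-IL10. The mono-IL10 mouse 3 had 9 NK cells and did not enter. At an unadjusted p under 0.05, the edgeR fit counted 1, 1 and 4 of 8 members in that order, beside 18.7%, 11.8% and 16.5% of all genes tested, and DESeq2 called 0 in each. Gimap3 was at 324, 156, 240, 171 and 161 CPM in PBS mice, at 168, 210, 200 and 198 in mono-IL10 mice and at 126, 116, 165, 160 and 113 in IL10/2-Trikine mice. The last group lay below all mono-IL10 mice, as did 3.1% of genes, and overlapped PBS. Its differences were -0.58 against PBS (95% interval -1.07 to -0.082, edgeR adjusted p = 0.186) and -0.62 against mono-IL10 (-1.05 to -0.19, edgeR adjusted p = 0.0932). Gimap7 differed by -0.071 against PBS (-0.93 to 0.79) and by -0.44 against mono-IL10 (-1.13 to 0.24). As in T cells, all 8 members had differences below 0 against mono-IL10. Their median was -0.45, against -0.011 over all genes tested. The sign of Gimap8 in NK cells against mono-IL10 changed under 4 of 20 alternatives.

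Whether a member responded differently in T and NK cells was tested by the difference between the 2 effects, in a fit with a term for each mouse, and 0 of 8 members were called by edgeR in the 3 comparisons, where 0.154%, 0.103% and 0.745% of 3892 genes were. The largest member difference was that of Gimap7, at -1.60 (SE 0.58) for IL10/2-Trikine against PBS, with an unadjusted p of 0.00763 and an adjusted p of 0.476 in edgeR. Against mono-IL10 it was -1.53 (SE 0.51), with an unadjusted p of 0.00365 and an adjusted p of 0.161 in edgeR. At an unadjusted p under 0.05, 1 of 8 members was counted in each comparison, beside 7.71%, 6.04% and 9.17% of all genes in the order given for NK cells. The member counted between mono-IL10 and PBS was Gimap4.

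Mono-IL10 against PBS called 0 of 8 members in T and NK cells together or in T cells by edgeR, where 1.48% and 2.57% of genes were called. The fitted differences over T and NK cells ran from 0.065 for Gimap3, whose mean CPM was 220 after PBS and 219 after mono-IL10, to 0.38 for Gimap7. Those of Gimap1, Gimap3 and Gimap6 changed sign under 1 of 22 alternatives each. Under an unadjusted p of 0.05 stood 1 of 8 members (Gimap4), beside 14.6% of all genes, and DESeq2 called 0. In T cells 0 members were under that p, beside 14.9% of genes, and DESeq2 called 0 there too. In NK cells Gimap4 was at 354, 295, 282, 272 and 201 CPM in PBS mice and at 477, 344, 432 and 340 in mono-IL10 mice. Its difference was 0.58 (SE 0.17, edgeR adjusted p = 0.122), and of the alternatives run it was called only with no filter on low counts, at 0.79 with an adjusted p of 0.0334 in edgeR.

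The make-up of the cells moved with treatment. Of T cells per mouse, cycling clusters took 23.0% ± 4.88 (SD, n = 5) after PBS, 23.6% ± 5.104 after mono-IL10 and 59.1% ± 5.22 after IL10/2-Trikine. Naive clusters took 20.1%, 30.8% and 0.81%, and Treg clusters 22.6%, 13.3% and 16.4%. Cells called T cells with more UMIs of NK markers than of T markers took 19.4% ± 7.34, 12.7% ± 3.68 and 50.6% ± 8.89. Without the cycling clusters, 3 IL10/2-Trikine mice kept the 10 cells asked of a mouse and 0 members were called against PBS in T cells, with -0.67 for Gimap3 (edgeR adjusted p = 0.291) and -2.99 for Gimap7 (0.0596). Without the cells rich in NK markers, which also left 3 IL10/2-Trikine mice, the differences were -0.65 (edgeR adjusted p = 0.196) and -1.80 (0.0699). Without the Treg clusters, Gimap3 was called at -0.78 (edgeR adjusted p = 0.0310) and Gimap7 was not, at -1.21 (0.162). Without the naive clusters both stayed called. Against mono-IL10, the T cell call of Gimap3 was lost without the cycling clusters (-0.92, edgeR adjusted p = 0.0632), without the cells rich in NK markers (-0.73, 0.0797) and after thinning to 1 total (-0.76, 0.0918). The part of cell make-up in these differences was not tested beyond these fits.

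Within clusters, the direction could be read where all 3 libraries had at least 20 cells, which held for NK, Cycling_T, Treg, act_CD4T and gdT/NKT. Gimap3 was lower after IL10/2-Trikine than after either other treatment in 5 of 5 of these clusters. In act_CD4T the values were close, at 130 CPM in PBS and 125 in IL10/2-Trikine, with overlapping intervals. In gdT/NKT the interval of IL10/2-Trikine (134 to 306) also overlapped those of PBS (185 to 317) and mono-IL10 (260 to 397). Against mono-IL10 the intervals overlapped in act_CD4T and Cycling_T too. With each cluster weighted equally, the mean of Gimap3 was 260 CPM for PBS, 289 for mono-IL10 and 153 for IL10/2-Trikine. Gimap7 was lower than in PBS in 2 of 5, Treg (326 to 66.3) and Cycling_T (66.1 to 23.3), and lower than in mono-IL10 in 5 of 5, with means of 101, 124 and 47.1. Gimap4 was lower than in PBS in 1 of 5, with means of 321, 421 and 342. Most of the family was lower than in mono-IL10. Gimap1, Gimap5 and the sum of all 8 were so in 5 of 5, and Gimap4, Gimap6, Gimap8 and Gimap9 in 4 of 5. Each of these is 1 library per treatment, so they are values with no test.

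Transcripts of other cell types were also measured in the annotated T cells. The macrophage or monocyte list (Csf1r, C1qa, C1qb, Adgre1 and Lyz2) summed to between 166 and 277 CPM over PBS mice, 105 and 180 over mono-IL10 mice and 139 and 308 over IL10/2-Trikine mice. The neutrophil list ranged from 12.4 to 577 in PBS mice, from 0 to 16.6 in mono-IL10 mice and from 0 to 253 in IL10/2-Trikine mice. The NK list ranged from 859 to 1613, from 634 to 1312 and from 1803 to 2813 in that order, without overlap between IL10/2-Trikine and the others. Over all annotated cells of a library, the endothelial genes Cdh5, Kdr and Emcn had 0 to 3 UMIs each and Pecam1, which lymphocytes also express, had 183 to 264. The B cell gene Ms4a1 was at 0 UMIs in all 3 libraries. The part of these transcripts in the differences was not tested.

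Genes known for the resting and recirculating state of naive lymphocytes were followed beside the family, as a list of 15. The list was chosen with earlier results of these data known, so its counts are a description and not independent support. Over T and NK cells, 14 were tested and 5 were lower after IL10/2-Trikine than after PBS, 0 higher, where 5.2% of all genes were called lower, with a median log2 difference of -0.54 against -0.012 over all genes. S1pr1, the receptor that lets lymphocytes leave tissue, fell by 2.20 (SE 0.57, edgeR adjusted p = 0.00908). Il7r, the receptor chain for the survival cytokine IL-7, fell by 1.40 (SE 0.28, edgeR adjusted p = 0.00395). Tcf7 and Bach2, transcription factors of naive and memory-like cells, fell by 0.88 and 0.57 there, and Btg1, which restrains proliferation, fell by 0.43 (SE 0.11, edgeR adjusted p = 0.011). In NK cells Tcf7 fell by 1.54 (SE 0.34, edgeR adjusted p = 0.00294). Against mono-IL10, 4 of 14 were lower and 0 higher, where 5.4% of genes were called lower, including Slfn2, a factor of T cell quiescence, which fell by 1.08 over T and NK cells and by 1.26 in T cells. For mono-IL10 against PBS, Bach2 alone was called of the 14, where 1.48% of genes were, and in T cells 2 of 12 were called, where 2.57% were, with Bach2 lower and Slfn2 higher. In NK cells 3 of 9 were called against PBS, all lower, where 2.46% of genes were called lower, 2 of 9 against mono-IL10, both lower, where 2.08% were, and 0 of 9 for mono-IL10 against PBS. In T cells 2 of 12 were lower and 0 higher for IL10/2-Trikine against PBS, where 4.08% of genes were called lower, and 2 were lower and 0 higher against mono-IL10, where 6.71% were. The higher share of NK cells and the lower share of naive cells after IL10/2-Trikine, given above, apply to these counts over T and NK cells as well.

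A further list of 14 genes was drawn from cell death, autophagy and IL-2 family signaling, also with earlier results of these data known. Whether their proteins act with Gimap proteins was not tested. Of these genes, 2 were lower and 0 higher in each comparison of IL10/2-Trikine over T and NK cells, where 5.2% of all genes were called lower against PBS and 5.4% against mono-IL10. Against PBS these were Stat5a and Stat5b, the signal carriers of the IL-2 receptor, which fell by 0.80 and 0.86 (edgeR adjusted p = 0.0215 and 0.0208). Against mono-IL10 they were Stat5b, which fell by 1.06 (edgeR adjusted p = 0.00113), and Map1lc3b, an autophagosome coat protein, which fell by 0.67 (edgeR adjusted p = 0.00117). Gabarap, of the same family as Map1lc3b, differed by -0.36 from mono-IL10 (edgeR adjusted p = 0.0563) and Jak3 by 0.52 from PBS (0.119), neither called. In T cells 2 of 14 were lower in each comparison of IL10/2-Trikine, beside 4.08% and 6.71% of genes. In NK cells 0 of 11 were called against PBS and 1 of 11 was lower against mono-IL10, beside 2.46% and 2.08% of genes called lower, and 0 were called for mono-IL10 against PBS in T, NK or all cells. Ctnnb1 differed by -0.49 between mono-IL10 and PBS over T and NK cells (edgeR adjusted p = 0.0827). The medians of the list were -0.17, 0.072 and -0.21 for IL10/2-Trikine against PBS, mono-IL10 against PBS and IL10/2-Trikine against mono-IL10.

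Most Gimap transcripts of the libraries lay outside the annotated cells. The annotated cells held 6.74% of all member UMIs of the PBS library, 15.2% for mono-IL10 and 6.85% for IL10/2-Trikine, while 65.6%, 71.4% and 60.1% were in other barcodes with at least 2 UMIs of T cell markers or NK receptors, of which there were 5908, 5129 and 8006. Gimap3 made up 16.5% (exact 95% interval 15.1 to 18.1) of member UMIs in annotated PBS cells, 15.3% (14.4 to 16.2) in mono-IL10 and 11.5% (10.2 to 12.8) in IL10/2-Trikine. In the other barcodes with T or NK transcripts it made up 20.01% (19.5 to 20.5), 18.9% (18.4 to 19.3) and 17.8% (17.3 to 18.3). IL10/2-Trikine was thus lowest in both sets, by a smaller margin outside the annotation. Gimap7 made up 5.42%, 6.88% and 4.60% in annotated cells and 5.73%, 6.22% and 5.31% outside. These intervals cover counting error in 1 library per treatment.

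Barcodes with endothelial markers carried 6 of the 8 members. Although the cells had been pulled with CD45 beads, 456, 164 and 586 barcodes outside the annotation passed a gate for endothelial markers, and 97.1%, 97.0% and 96.8% of them held Cdh5, the endothelial cadherin. Gimap6 was at 269 CPM in these barcodes for PBS, 324 for mono-IL10 and 303 for IL10/2-Trikine, above its 219, 284 and 197 in the NK cluster. Gimap4 was at 147, 164 and 160, Gimap5 at 99.1, 122 and 141, Gimap9 at 58.5, 55.7 and 49.98, Gimap8 at 43.8, 40.7 and 47.4, and Gimap1 at 37.0, 40.04 and 37.1. Gimap3 had only 3, 1 and 9 UMIs there, or 0.44, 0.31 and 2.14 CPM, against 142 to 216 in the NK cluster. Gimap7 had 0 UMIs in PBS and mono-IL10, where a floor of 3 counts lies at 0.436 and 0.924 CPM, and 3 UMIs in IL10/2-Trikine. Gimap3 and Gimap7, the members called lower after IL10/2-Trikine in T cells, were thus also nearly missing from endothelial barcodes. This pairing was seen after the fact in the same data, and no test was made of it.

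**Figure D4:**
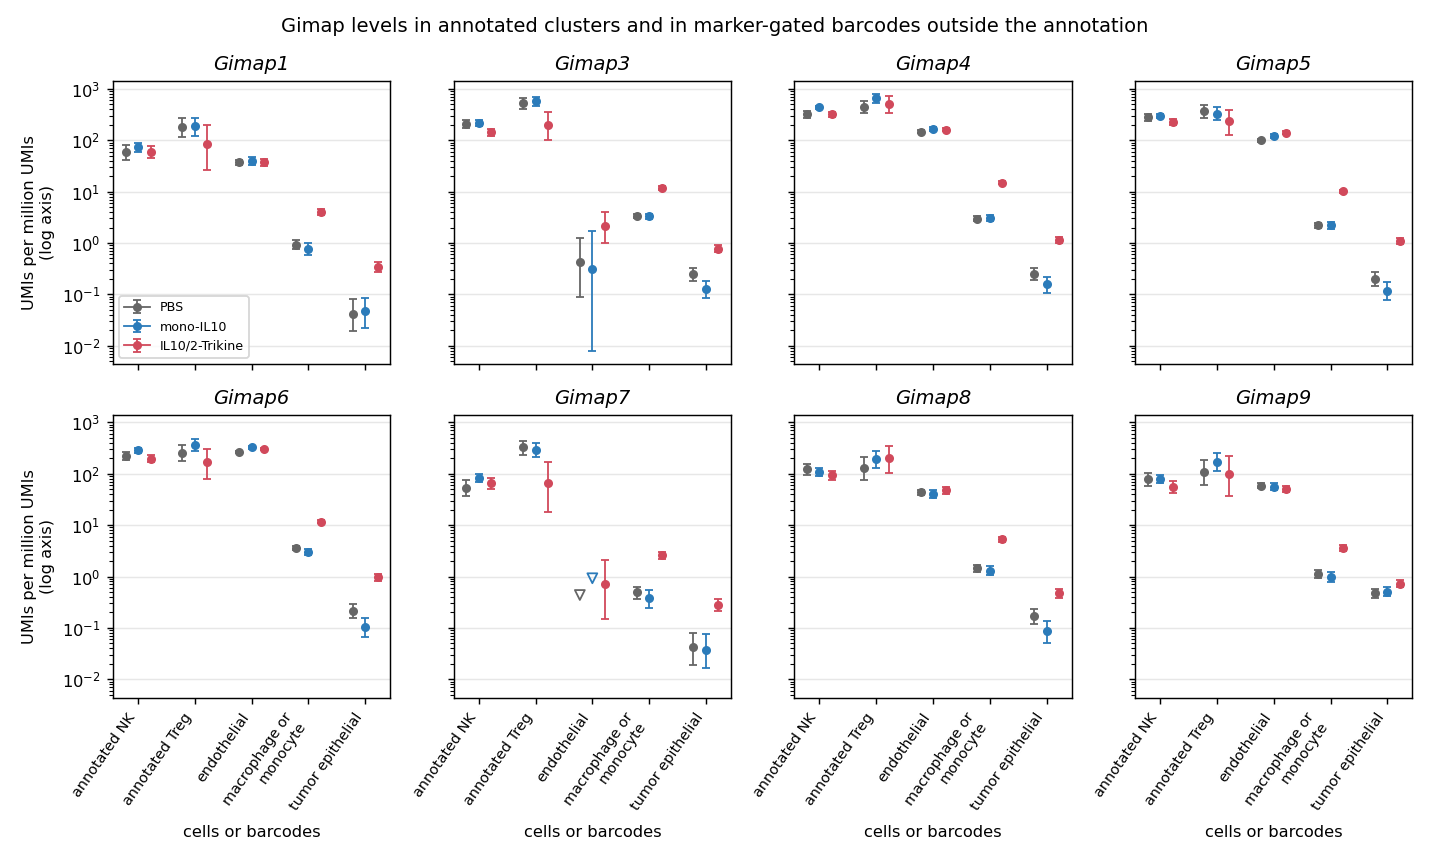
Level of each member in the annotated NK and Treg clusters and in barcodes outside the annotation that passed gates for endothelial, macrophage or monocyte, and tumor epithelial markers, as CPM on a log axis, with 95% Poisson intervals, by library. Open triangles stand at 3 counts where no UMI was found. Gimap3 and Gimap7 drop to about 2 or below in endothelial barcodes, where the other 6 members stay between 37.0 and 324.

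Barcodes of other cell types gave a background. The gate for tumor epithelial markers rested mostly on keratins, with Epcam in 8.61% to 11.01% of its barcodes. The 8 members summed to 1.64, 1.18 and 5.80 CPM in barcodes with tumor epithelial markers for PBS, mono-IL10 and IL10/2-Trikine, and to 16.1, 15.0 and 64.1 in those with macrophage or monocyte markers. The endothelial sums were 654, 747 and 741. Gimap3 in endothelial barcodes lay below the 3.34, 3.30 and 11.8 CPM it had in the macrophage or monocyte barcodes. Barcodes with B cell markers (Cd79a, Cd79b and Ms4a1) numbered 21 for mono-IL10 and 40 for IL10/2-Trikine and held 434 and 174 CPM of the family, with Gimap6 at 180 and 50.8. For PBS they numbered under 20 and were not summed.

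Gimap1os, an antisense gene that lies between Gimap7 and Gimap1, was the only other Gimap feature in the files. It was at 18.8 ± 10.0 CPM (n = 5) for PBS, 17.7 ± 5.5 for mono-IL10 and 19.5 ± 13.9 for IL10/2-Trikine over T and NK cells, from 25, 54 and 17 UMIs. Gimap3 and Gimap5 are the only members whose transcripts share runs of 50 bases in the GENCODE M21 set, 7.52% of such runs for Gimap3 and 9.98% for Gimap5. In the first 500 bases of the transcripts, near where a 5′ kit reads, 7.32% of the runs of Gimap5 and 0% of those of Gimap3 were shared, so a part of Gimap5 reads may be assigned with less certainty.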

How the data were processed

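The authors deposited raw UMI counts for each gene in each barcode, made with Cell Ranger 9.0.1 on GRCm39, without normalization. The submitters' processing notes also name Seurat 5.1.0 and DESeq2 1.46.0. Cell names, mice and clusters come from the deposited cell table (singlets and hashtag-negative cells), which also lists 7858 cells of a group that is not analysed here. Annotated cells were found in the matrices by barcode.

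Here, counts were summed per mouse (hashtag) over T and NK cells, T cells or NK cells, with at least 10 cells per mouse, and fitted for all genes and 3 groups in edgeR 4.0.16 (R 4.3.3: filterByExpr, TMM, quasi-likelihood test), with Benjamini-Hochberg adjustment over all genes tested and a threshold of 0.05. The SE is the log2 difference divided by the root of F. The difference between T and NK effects was tested in 1 fit over both with a term for each mouse, so T and NK sums of a mouse were paired. The script was tested on simulated data. Alternatives were DESeq2 1.42.0, RLE factors, no filter, 2 groups, thinning, cluster subsets and leaving out each mouse.

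Barcodes outside the annotation had at least 1000 genes and at most 10% mitochondrial UMIs. A gate asked for 2 detected markers of its list and at most 1 UMI of T, NK and other defining markers. Depth was 458860129, 515236552 and 364814102 UMIs for mono-IL10, PBS and IL10/2-Trikine. Promoters and transcripts are of GRCm38, so no coordinate was joined to the counts. Python 3.11.15 with numpy 2.4.6, pandas 2.3.3 and scipy 1.17.1 was used.

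The members and lists were chosen with earlier results of these data known, and 2 listed genes are not reported here. Named genes were all 8 members, other Gimap features, the 6 genes with the smallest adjusted p of each list, and the 10 most like the family. Mice are separate animals, but each treatment is 1 library.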

Additional observations from a re-analysis of the deposited data

Results flagged for a closer look

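In groups of 4 or 5 mice, the highest or lowest mouse was compared with the spread of the others by Dixon's criterion at 95%, which chance alone passes in about 1 of 20 groups. Of 81 groups, 6 passed. Mouse 4 of mono-IL10 was far above the others for Gimap3 over T and NK cells, at 276 CPM against 203 to 208, and in T cells, at 313 against 197 to 224. The same mouse was highest for Gimap9 over T and NK cells, at 101 against 75.3 to 82.7. In T cells of PBS, mouse 4 was highest for Gimap4, at 460 against 303 to 321, and mouse 3 for Gimap6, at 259 against 160 to 186. In NK cells, mouse 5 of mono-IL10 was lowest for the summed family, at 1180 against 1529 to 1573. The calls of Gimap3 and Gimap7 in T cells held when any 1 mouse was left out.

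Outside the annotated cells, Gimap6 was at 269 CPM in endothelial-marker barcodes for PBS, 324 for mono-IL10 and 303 for IL10/2-Trikine, above its level in barcodes with tumor epithelial markers of the same libraries (0.215, 0.104 and 0.963). These barcodes enter no comparison between treatments.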

How the results depend on the processing

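For IL10/2-Trikine against PBS over T and NK cells, 2 members were called in the reported fit and 1 with DESeq2, after thinning to 1 total, without the naive clusters and without the Treg clusters, and 1 to 2 when 1 mouse was left out. In T cells the same comparison gave 1 with only the 2 groups (7 members tested, Gimap7 not among them), 1 after thinning (4 tested, again without Gimap7), 1 without the Treg clusters, and 0 without the cycling clusters or the cells rich in NK markers. Against mono-IL10 in T cells it gave 0 after thinning, where Gimap3 lost its call and Gimap7 was not tested, and 1 without the cycling clusters or the cells rich in NK markers. In NK cells, mono-IL10 against PBS gave 1 with no filter, against 0. All other counts of members called matched the reported ones, and the stricter minimum of 20 cells left the sums over T and NK cells as they were. Gimap7 in NK cells against PBS was 0.044 with no filter and ranged from -0.30 to 0.069 when 1 mouse was left out. Of the 78 member differences not given singly with their alternatives, 0 were called, 0 became called and 37 changed sign under some alternative. None of the 37 was over 0.34 in size in the reported fit, but alternatives reached further. For IL10/2-Trikine against PBS, the T minus NK difference of Gimap6 was -0.053 in the reported fit and up to 0.65 under an alternative. Using only cells assigned to a mouse, 17 of 20 cluster sums stayed within their counting interval, and NK in PBS (1221), NK in mono-IL10 (1499) and act_CD4T in mono-IL10 (860) did not. No paired analysis was possible because the mice of the 3 groups are different animals, the labels give the libraries no replicate numbers, and the mouse numbers only name the hashtags within a library. The fit of T against NK effects has a term for each mouse. Depth limits the rarer members: in T cells of IL10/2-Trikine the whole group held 16 UMIs of Gimap7 and 49 of Gimap9. The cause of these changes was not tested.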
